A study of Caenorhabditis elegans with 3 samples.

Results

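The 224 regions described here are strong binding regions of the protein EGL-27 that lie in introns of autosomal protein-coding genes of the nematode Caenorhabditis elegans. They were chosen by signal and by position. Of 30000 regions that the authors listed for all replicates together, as peaks and background, the 1500 with the highest signal were kept. A region became a member if its summit, the base with the highest signal in the region, lay on an autosome, inside a protein-coding gene and outside every annotated exon. It also had to lie outside the promoter windows, each running from 1000 bp upstream to 200 bp downstream of a protein-coding gene's start. Summits within 20 kb of egl-27 itself were left out, which removed 10 intronic regions. Outside that neighbourhood, the other autosomal regions among the 1500 were 495 in promoter windows, 263 between genes, 107 in exons and 2 in noncoding genes. Inside it, 3 promoter, 7 intergenic and 6 exon regions were left out as well.

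The measurements were chromatin immunoprecipitation sequencing (ChIP-seq) of whole first-stage (L1) larvae of strain OP177, with the genotype unc-119(ed3) III; wgIs177. The strain carries a transgene for EGL-27 with a GFP-FLAG tag at its C-terminus, and the labels do not name the promoter that drives it. The labels give 3 biological replicates, all mixed sex, and each was set against the same control. All samples formed 1 group, so these regions are compared with other regions and with intron sequence, and the replicates with each other. Whole larvae hold many cell types, so binding in few cells and weak binding in many cells cannot be told apart.

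EGL-27 has a GATA-type zinc finger and resembles MTA proteins, subunits of the NuRD complex that remodels and deacetylates chromatin. Most introns of Caenorhabditis elegans are short, and long ones, often near the start of a gene, can hold enhancers, alternative promoters and genes of small noncoding RNAs. Runs of GA dinucleotides are known as binding sequences of GAGA factors in Drosophila. E-boxes are bound by basic helix-loop-helix proteins, and GATA-type sites by GATA factors.

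The sequences of 9 members are shown because they carry the highest signals or the motifs counted below. Each is the 201 bp centred on the summit, on the plus strand of build ce11, from the RefSeq sequence of that assembly, written 5′ to 3′. Capitals mark 4 motifs on either strand: the GA repeat GAGAGA, the E-box CACGTG, the GATA-type site TGATAA and the AP-1 type site TGACTCA. The first 5 are the members with the highest signals on the chromosomes from which sequence is shown. They lie at chrIII:12612566-12612766 (Y111B2A.12), chrIII:1925239-1925439 (pqn-41), chrIII:8795749-8795949 and chrIII:8802034-8802234 (zfp-1), and chrII:9603509-9603709 (nhr-19). The nhr-19 region is also the highest member with CACGTG, and the pqn-41 region is the highest without GAGAGA and without either of the next 2 motifs.
Y111B2A.12: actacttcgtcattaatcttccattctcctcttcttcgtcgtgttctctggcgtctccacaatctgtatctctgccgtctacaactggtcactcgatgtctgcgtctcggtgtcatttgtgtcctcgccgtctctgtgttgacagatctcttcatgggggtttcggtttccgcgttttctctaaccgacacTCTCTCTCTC
pqn-41: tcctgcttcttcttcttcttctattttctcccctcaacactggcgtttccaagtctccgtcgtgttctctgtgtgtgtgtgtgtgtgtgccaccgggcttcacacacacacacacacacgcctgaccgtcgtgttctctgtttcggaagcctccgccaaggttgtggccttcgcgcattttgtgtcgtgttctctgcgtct
zfp-1 intron 4: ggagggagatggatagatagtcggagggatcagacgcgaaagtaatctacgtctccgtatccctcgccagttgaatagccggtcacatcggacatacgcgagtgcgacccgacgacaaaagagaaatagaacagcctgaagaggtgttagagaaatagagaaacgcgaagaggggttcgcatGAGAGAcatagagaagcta
zfp-1 intron 9: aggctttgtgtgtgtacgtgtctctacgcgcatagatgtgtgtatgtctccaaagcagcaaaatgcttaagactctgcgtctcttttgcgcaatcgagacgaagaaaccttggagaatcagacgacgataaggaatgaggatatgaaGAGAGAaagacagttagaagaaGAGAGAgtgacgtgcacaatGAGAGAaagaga
nhr-19: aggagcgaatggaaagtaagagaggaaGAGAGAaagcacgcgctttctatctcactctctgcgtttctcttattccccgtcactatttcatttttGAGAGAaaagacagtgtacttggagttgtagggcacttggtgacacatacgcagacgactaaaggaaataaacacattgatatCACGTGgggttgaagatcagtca

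The next pair are the highest member with TGATAA, at chrII:14044262-14044462 in daf-5, and the highest with TGACTCA, at chrV:4527098-4527298 in sos-1. The last pair lie at chrIV:10252493-10252693 in daf-14 and at chrII:10548956-10549156 in mnk-1. They were picked after their values were seen, because their unbroken GA runs of 25 bp and 24 bp were the longest on these chromosomes.
daf-5: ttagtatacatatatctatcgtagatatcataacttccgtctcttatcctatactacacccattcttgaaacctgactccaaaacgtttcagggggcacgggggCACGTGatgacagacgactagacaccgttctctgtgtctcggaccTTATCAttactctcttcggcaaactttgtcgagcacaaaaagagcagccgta
sos-1: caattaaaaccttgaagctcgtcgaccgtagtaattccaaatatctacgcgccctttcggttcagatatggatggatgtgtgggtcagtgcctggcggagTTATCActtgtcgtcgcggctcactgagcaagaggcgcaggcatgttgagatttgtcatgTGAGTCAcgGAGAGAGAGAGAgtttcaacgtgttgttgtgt
daf-14: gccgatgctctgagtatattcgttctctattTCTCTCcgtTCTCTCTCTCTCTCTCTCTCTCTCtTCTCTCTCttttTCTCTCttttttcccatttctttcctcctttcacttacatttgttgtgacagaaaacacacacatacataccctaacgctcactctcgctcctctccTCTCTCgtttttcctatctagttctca
mnk-1: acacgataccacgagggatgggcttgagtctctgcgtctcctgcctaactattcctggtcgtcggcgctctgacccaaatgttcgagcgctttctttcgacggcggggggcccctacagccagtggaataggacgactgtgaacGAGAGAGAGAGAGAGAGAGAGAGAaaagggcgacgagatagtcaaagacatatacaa

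The signal of a region is the authors' own value for its enrichment over the control, whose scale the sources used here do not state. Among the 224 members it ranged from 18.8 to 166.1, with a median of 23.9 and quartiles of 20.9 and 32.1. The members were selected on this value, so it is given only as a description. Median signals of the strong promoter and intergenic regions were 25.3 and 24.3. The last members inside the limit were in cam-1 (signal 18.94), pde-4 (18.88) and C54G6.3 (18.81). The first intronic regions outside it were in egl-44 (18.71), saeg-1 (18.65) and dkf-2 (18.61). Of the members, 72 (32.1%) were in the authors' shorter list, cut by irreproducible discovery rate (IDR), and of all 1500 regions 34.9% were. That list is the top of the same ranking, so both shares follow from the selection. The regions of 4 members overlapped that of another member, so these do not stand for separate sites.

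The 20 highest members lay in 15 genes. The highest of all 1500 regions was a member, in intron 4 of Y111B2A.12, which encodes a protein with WD repeats. Its signal was 36.7 in replicate 1, 67.0 in replicate 2 and 61.0 in replicate 3, and it ranked 8, 2 and 2 in their lists. The second highest member lay in pqn-41, which encodes a protein with polyglutamine repeats, and had signals of 21.1, 37.1 and 66.8 in replicates 1, 2 and 3. It was the highest region of the whole replicate 3 list, ranked 17 in replicate 2 and ranked 41 in replicate 1. Since the scale of the signal is not known, ranks rather than signals are set side by side between replicates. Replicate 3 listed 13516 regions and the other replicates 30000 each.

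Of the 20 highest members, 17 were among the 1500 highest regions of all 3 replicate lists. The other 3 were each far down 1 list. The fourth highest pqn-41 member ranked 5113 in replicate 1, against 27 and 59 in replicates 2 and 3. The member in T28F4.1, a gene for a SERTA domain protein, ranked 4825 in replicate 2, against 25 and 46 in replicates 1 and 3. The tre-2 member, in a trehalase gene, ranked 21069 in replicate 1, against 55 and 174 in replicates 2 and 3.

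The remaining single members of the top 20 lay in genes of several kinds. zip-2, a bZIP factor of the response to infection, had a member with a pooled signal of 52.8 that ranked 1187, 86 and 50 in replicates 1, 2 and 3. The nhr-19 member, in a nuclear hormone receptor gene, had a pooled signal of 81.6 and ranked 19, 201 and 8. The drap-1 member, in a gene for a histone-fold protein, had a pooled signal of 59.0 and ranked 82, 34 and 450. Members in Y62E10A.13 (a phosphoserine phosphatase), T24B8.3, Y43F8B.2, dhc-4 (a dynein heavy chain) and mnk-1 (a MAP kinase-interacting kinase) had pooled signals of 63.6, 56.1, 55.3, 54.2 and 50.8. Those 5 were also among the 1500 highest regions in all 3 replicates.

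**Figure D1:**
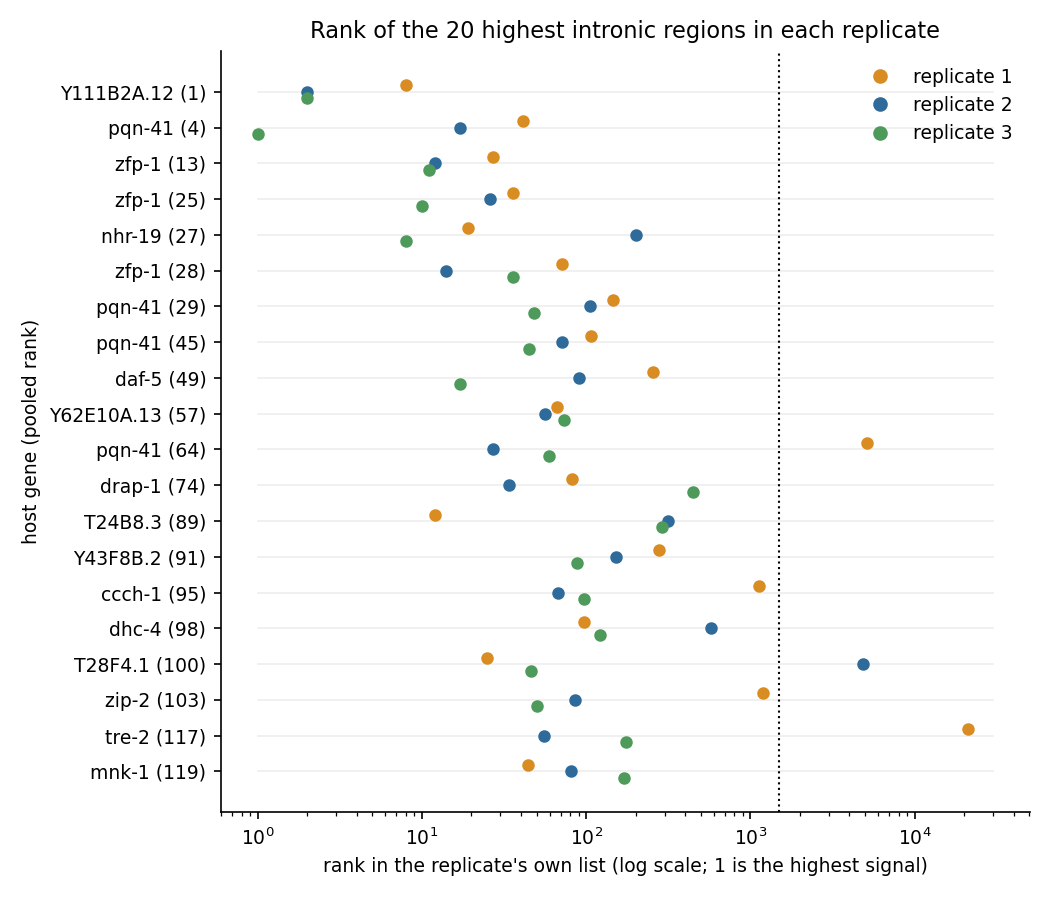
Rank of each of the 20 highest intronic regions in the list of each replicate, on a log axis where 1 is the highest signal; host gene and rank in the pooled list are given at the left, and the dotted line is rank 1500. Of the 60 points, 57 lie left of the line, and the other 3 are pqn-41 and tre-2 in replicate 1 and T28F4.1 in replicate 2.

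Across all members, support in the single replicates was uneven. Of the 224 summits, 90 (40.2%) fell among the 1500 highest regions of replicate 1, 50% among those of replicate 2 and 133 (59.4%) among those of replicate 3. All 3 lists held 40 members (17.9%, exact 95% binomial interval 13.1 to 23.5), and of all 1500 strong regions 19.2% were held by all 3, so the members did not stand apart in this. In none of the 3 lists were 25 members, although each of the 224 summits lay in some region of at least 1 full list. The median pooled signal was 45.8 for the 40 members in all 3 lists, 28.9 for 56 members in 2 lists, 21.6 for the members in 1 list and 20.6 for 25 in none. Pooled signal is made from the same reads, so this order is a description. Spearman correlations of replicate signal across members were 0.24 between replicates 1 and 2 (168 members), 0.35 between 1 and 3 (168) and 0.23 between 2 and 3 (183). These members were picked on pooled signal and share 1 control, and they are not independent replicates.

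Strong intronic regions lay in long introns. The median length of the intron that held a member was 3529 bp, against 1091 bp for 5825 weaker intronic regions of the pooled list (ranks after 1500). It was 988 bp for intron bases that could have held a member, sampled at even steps. The authors listed peaks and background together, and their IDR list held 524 regions. The weaker regions of the pooled list can thus be largely background, here and below. Introns of 2000 bp or more held 146 members (65.2%, 58.5 to 71.4), 35.8% of the weaker regions and 29.03% of eligible intron bases. The introns of members ranged from 224 bp to 19927 bp, and a member's summit lay a median of 850.5 bp from the nearer end of its intron, against 225 bp for weaker regions. Summits were about as far from the 5′ end of the intron (median 1518 bp) as from its 3′ end (1337 bp).

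The same was measured within each replicate, by taking the 1500 highest regions of its own list and applying the same rule on position. This gave 235, 264 and 241 strong intronic regions in replicates 1, 2 and 3. Introns of 2000 bp or more held 53.2%, 58.0% and 67.6% of these, against 33.5%, 31.5% and 42.6% of the weaker intronic regions of the same lists. The shorter list of replicate 3 gave a weaker set of 2651 regions, against 6014 and 6054 in replicates 1 and 2. This applies to each such comparison below. The difference for long introns was 23.7 ± 3.58 percentage points (SD, n = 3) and was positive in 3 of 3 replicates. A two-sided exact sign-flip permutation test over 3 replicates gave p = 0.25, the smallest p that 3 replicates allow, and this holds for each replicate comparison below.

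First introns held 85 members (37.9%, 31.6 to 44.7), 28.1% of weaker intronic regions and 22.9% of eligible intron bases. Introns were numbered on the longest transcript with an intron at the summit, which can start inside the gene. In the replicates' own lists first introns held 34.04%, 36.4% and 39.4% of strong regions, against 26.1%, 26.8% and 30.3% of weaker ones. The difference was 8.87 ± 0.855 points (SD, n = 3; exact p = 0.25), so it was larger than the spread between replicates. The summits lay a median of 4311 bp downstream of the host gene's start, against 2606 bp for weaker regions, in host genes with a median length of 11227 bp against 7307 bp.

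Some intronic regions lay near other annotated transcript starts. The promoter windows that define members use 1 start per gene, and 56 members (25%, 19.5 to 31.2) lay in the same kind of window around another annotated transcript start. Of weaker regions 14.8% did, and of eligible intron bases 11.1%. Replicates 1, 2 and 3 gave 22.1%, 19.7% and 29.5% for strong regions, against 13.2%, 13.6% and 17.8% for weaker ones, a difference of 8.89 ± 2.80 points (SD, n = 3; exact p = 0.25). The 56 members included regions in drap-1, zip-2, T24B8.3, tre-2 and 1 of the 6 regions of zfp-1. Their median pooled signal was 27.01, against 23.7 for the other 168 members.

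**Figure D2:**
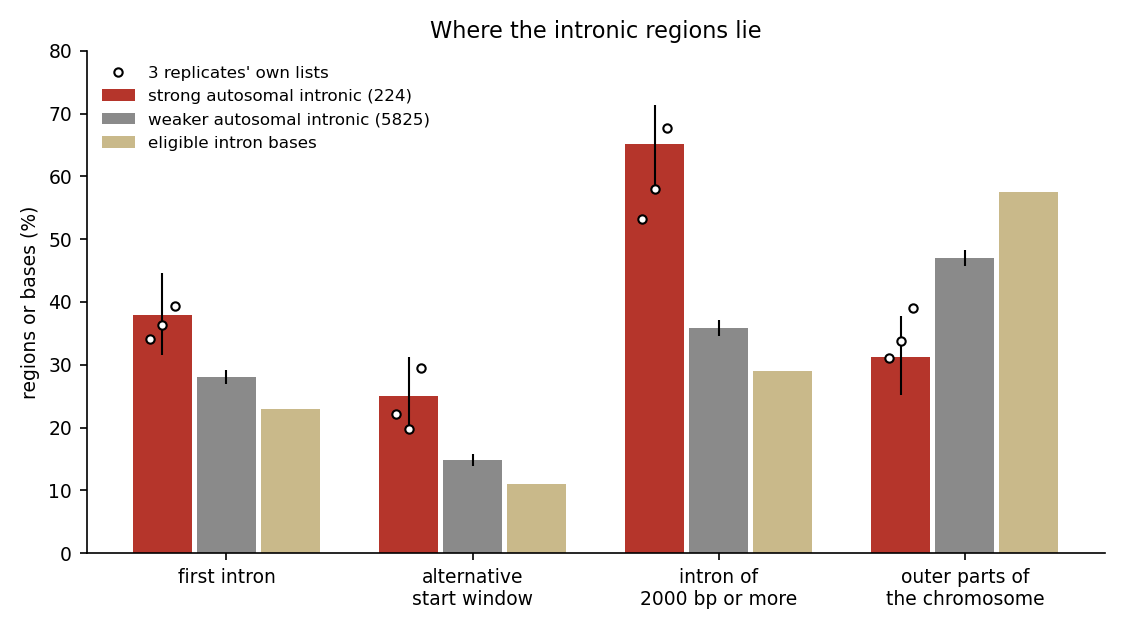
Share of strong autosomal intronic regions, of weaker ones and of eligible intron bases that lay in a first intron, in a promoter-type window around an alternative transcript start, in an intron of 2000 bp or more, or in the outer parts of the chromosome. Lines are exact 95% binomial intervals and open circles the strong regions of the 3 replicates' own lists. Strong regions exceed the weaker ones in the first 3 measures and lie below them in the last (31.2% against 47.1%).

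Members were spread over the 5 autosomes, with 36 on I, 50 on II, 51 on III, 47 on IV and 40 on V. Chromosome II held 22.3% of members (17.04 to 28.3) and 16.9% of eligible intron bases, and chromosome I held 16.1% (11.5 to 21.5) and 21.9%. The outer parts of the chromosomes, 0.25 of the length at each end, held 70 members (31.2%, 25.2 to 37.8), against 47.1% of weaker regions and 57.5% of eligible bases. In the replicates' own lists the outer parts held 31.1%, 33.7% and 39.0% of strong regions, against 46.4%, 49.7% and 42.7% of weaker ones. The difference was -11.7 ± 6.94 points (SD, n = 3; exact p = 0.25), and replicate 3 gave the smallest, -3.66. Repeats marked in the reference sequence covered the summit of 12.9% of members, 39.5% of weaker regions and 54.3% of eligible bases. They covered that of 13.9% of strong promoter and 15.6% of strong intergenic regions, so the members did not stand apart from these. In the replicates' own lists the share of covered summits was 21.7%, 21.97% and 19.5% in strong intronic regions, against 43.2%, 43.03% and 37.9% in weaker ones. The part of repeats in the shares by position was not tested.

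Several host genes held more than 1 strong region. The 224 members lay in 175 genes when each was given 1 host, and 143 of these held 1 member, 22 held 2 and 10 held 3 or more. Within 5 kb of another member lay 64 members (28.6%). Counting both hosts of the 2 members that lie in overlapping genes, 177 of 15051 autosomal genes with eligible intron sequence were hosts, or 1.18%. Members were denser in genes with more eligible intron sequence. For each 1000000 eligible bases there were 3.37 members in genes with under 1000 bp of it, 6.27 in genes with 1000 bp to under 5000 bp, 12.6 in genes with 5000 bp to under 10000 bp and 12.9 in genes with 10000 bp or more.

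zfp-1 held the most, 6 members, with pooled signals of 91.6, 82.8, 81.0, 40.3, 39.1 and 23.8. They lay in intron 4 (4254 bp) and intron 9 (3179 bp) of its transcript, and each of the 6 had GAGAGA within 100 bp of the summit. The regions of the members of signal 81.0 and 23.8 overlap, so these do not stand for separate sites. ZFP-1 is a PHD zinc finger protein related to human AF10, a partner of the DOT1L histone methyltransferase. The 3 highest zfp-1 members ranked between 10 and 71 in the 3 replicate lists. The member of signal 40.3 ranked 213 in replicate 1 and 384 in replicate 3 but 13706 in replicate 2.

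pqn-41 held 5 members within intron 14 (10372 bp in the longest transcript that has it), with pooled signals of 123.4, 80.7, 70.2, 61.3 and 24.5. Of these, 3 had GAGAGA, and the highest had no GA repeat, palindromic E-box or GATA-type site, as its sequence above shows. The regions of the 2 weakest lay 207 bp apart by their summits and fell in the same region of the replicate 3 list.

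daf-5, which encodes a Ski-family protein of the dauer TGF-beta pathway, held 4 members, 3 of them in its first intron of 14446 bp. Their pooled signals were 65.7, 42.3, 20.3 and 20.3, and 2 of them had GAGAGA. The daf-5 member of signal 42.3, shown above, had CACGTG and TGATAA close to its summit and ranked 283, 1383 and 237 in replicates 1, 2 and 3. ccch-1, a gene for a CCCH zinc finger protein, held 4 members within intron 3 (7855 bp), with pooled signals of 55.0, 41.0, 40.5 and 30.4. Only the highest of these 4 had GAGAGA. It was also the one near an alternative start, and it ranked 1136, 67 and 97 in replicates 1, 2 and 3.

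**Figure D3:**
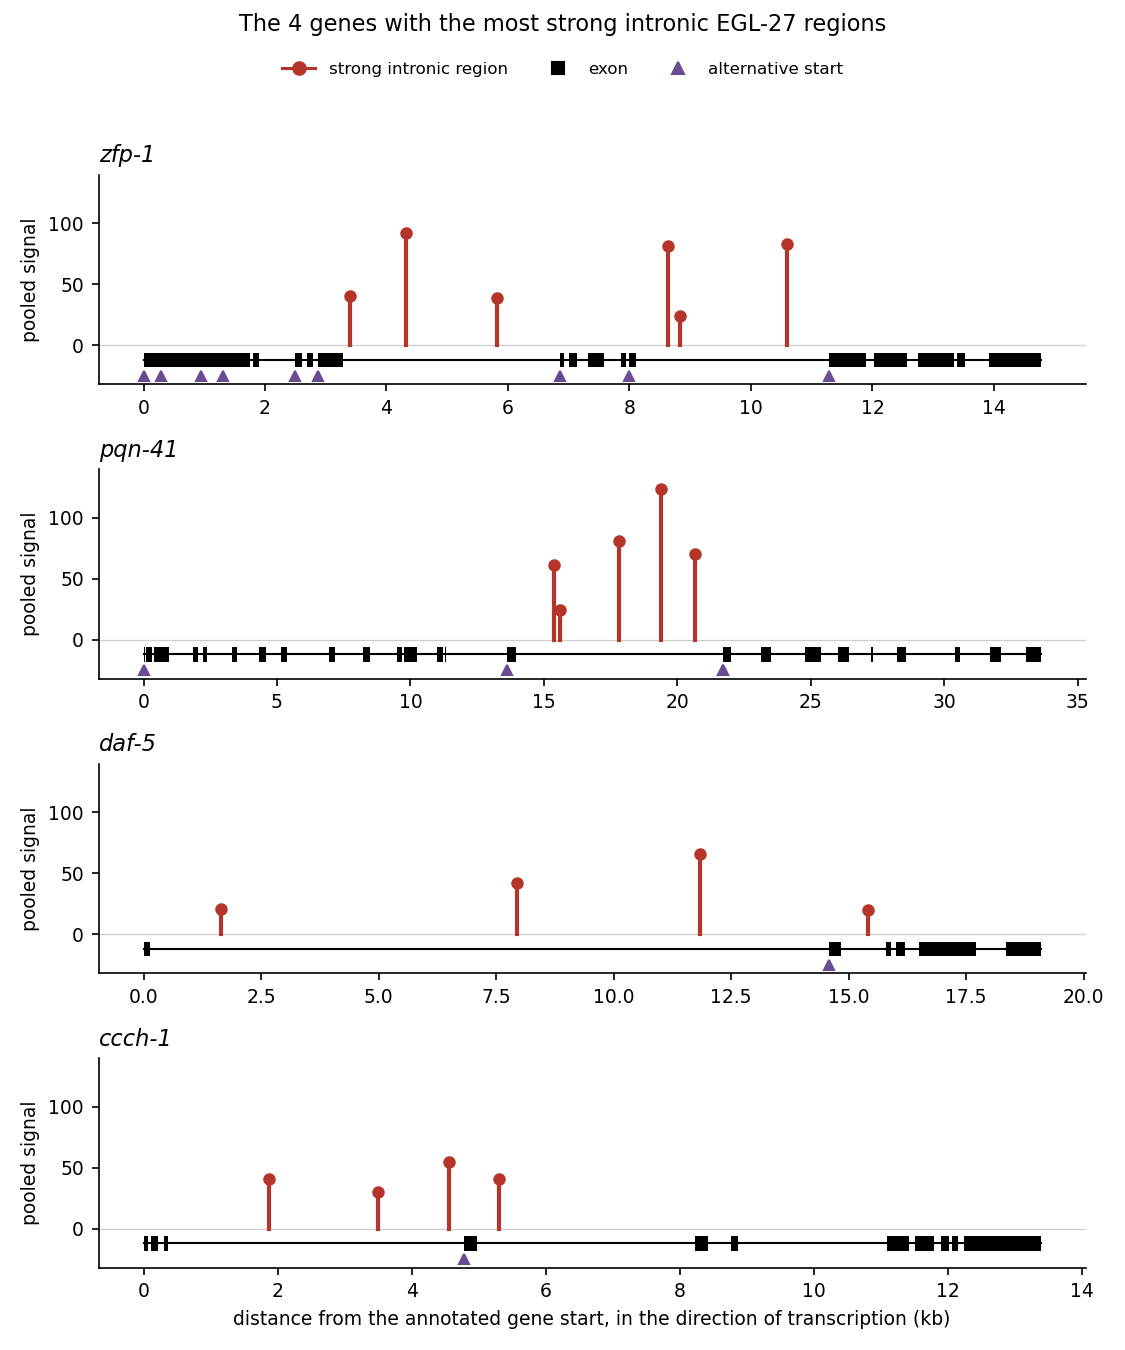
Positions of strong intronic EGL-27 regions in zfp-1, pqn-41, daf-5 and ccch-1, along the gene in the direction of transcription (kb from the annotated start). Each stem is a region and its height the pooled signal; black boxes are exons of any transcript and triangles alternative transcript starts. All regions of pqn-41 fall in 1 stretch without exons, and those of zfp-1 in 2.

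The other 6 genes with several members had 3 each and lower signals. They were hlh-30 (a TFEB-like helix-loop-helix factor of autophagy and lipid metabolism), fkh-7 (a forkhead factor), vhp-1 (a MAP kinase phosphatase), ppfr-1 (a regulatory subunit of protein phosphatase 4), ifbp-1 and T28B11.1. Their highest members had pooled signals of 25.4 in hlh-30, 23.7 in fkh-7, 31.3 in vhp-1, 36.1 in ppfr-1, 35.4 in ifbp-1 and 28.4 in T28B11.1. The 3 T28B11.1 members lay in 1 intron of 17091 bp.

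Host genes were grouped by 12 lists of gene function. Nuclear hormone receptor genes made up 7 hosts of 242 such genes (2.89%, beside 1.18% of all genes) and held 11 members. These 11 are 4.91% of members (2.48 to 8.62), while the same genes hold 1.26% of eligible intron bases. The hosts were nhr-19, nhr-46, nhr-34, nhr-41, nhr-31, nhr-23 and nhr-43. nhr-46 had members of 37.2 and 24.5, nhr-34 of 32.8 and 24.3. nhr-23, a receptor needed for molting, had 1 of 25.6. Its summit lay 409 bp into the first intron of the transcript used and 2693 bp downstream of the gene's start. This member ranked 215 in replicate 2 and 2436 in replicate 3, with no region there in replicate 1.

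Of 100 genes of zinc finger and other factor families, 5 were hosts with 9 members: zip-2, mef-2, daf-16, skn-1 and fkh-7. These 9 are 4.02% of members (1.85 to 7.49), beside 1.34% of eligible bases. Factor genes not on the list were hosts too, such as jun-1, let-607, lag-1, bcl-11 and ccch-1, named after their values were seen. mef-2, a MADS-box factor gene, had a member of 40.5 in its first intron that ranked 417, 256 and 246 in replicates 1, 2 and 3. daf-16, the FOXO factor of insulin signalling, had members of 30.9 and 29.03. The one of 29.03 had a GA run of 28 bp, and no region of replicate 1 lay at its summit. skn-1, a factor of gut fate and stress responses, had members of 24.9 and 21.9 in its first intron. Helix-loop-helix and PAS genes made up 2 hosts of 30, hlh-30 and lin-42, with 4 members (1.79%, 0.489 to 4.51) beside 0.293% of eligible bases. lin-42, a Period-related gene of developmental timing, had a member of 23.4 with a GC content of 67.2%. Homeobox genes made up 0 hosts of 69, where 0 of 224 members allows a share of up to 1.63% (upper exact bound) and these genes hold 0.746% of eligible bases.

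Of 65 genes of the insulin, dauer and TGF-beta list, 3 were hosts with 8 members (3.57%, 1.55 to 6.92, beside 0.650% of eligible bases). They were daf-5, daf-14 and daf-16. daf-14, a Smad of the dauer pathway, had members of 43.7 and 24.7, and the higher is the one with the GA run of 25 bp. It ranked 207, 1502 and 110 in replicates 1, 2 and 3. Wnt genes made up 2 hosts of 25, lit-1 (a Nemo-like kinase, 29.99) and cam-1 (a Ror receptor, 18.9), with 0.893% of members (0.108 to 3.19) and 0.360% of eligible bases. The heterochronic and molting list had nhr-23 and lin-42 as hosts of 20 genes, with 0.893% of members (0.108 to 3.19) and 0.292% of eligible bases. zfp-1 was the only host among the 67 genes of the chromatin list, and its 6 members are 2.68% of members (0.989 to 5.74), beside 0.602% of eligible bases for the list. That list does not hold every chromatin gene. pbrm-1, nurf-1 and let-526, which encode subunits of chromatin remodelling complexes and are not on it, had members of 50.6, 20.04 and 19.1. These 3 were picked after their values were seen.

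Lists of genes with roles in differentiated cells differed in their counts. Of 168 ion channel and receptor genes 1 was a host, twk-5, a potassium channel gene with a member of 32.8. That is 0.446% of members (0.0113 to 2.46), while the list holds 2.74% of eligible bases. Axon guidance and adhesion genes made up 4 hosts of 59 (6.78%), sax-2, hmr-1 (cadherin), casy-1 (calsyntenin) and ptp-3, each with 1 member and with pooled signals from 19.9 to 23.1. That is 1.79% of members (0.489 to 4.51), beside 1.99% of eligible bases. Muscle genes made up 0 of 40 hosts and collagen genes none, with 0.854% and 0.238% of eligible bases, both under the 1.63% that 0 of 224 members allows. The lists differ in gene number and intron length, several share a gene, and members of 1 gene are not independent, so no test was made.

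A small set of members lay beside genes of short noncoding RNAs. Of the 224, 17 (7.59%) lay within 500 bp of a snoRNA, snRNA, tRNA or rRNA gene, against 1.42% of weaker regions and 0.772% of eligible bases. The nearest gene was a snoRNA for 12, a tRNA for 3 and a snRNA for 2, and it was an rRNA for 0. For 16 of the 17 the summit was 3 to 68 bp from that gene, and the zip-2 summit was 219 bp away. Summits inside such a gene were not eligible, since its body counts as an exon. With only exons of protein-coding genes left out, 257 regions in place of 224 would qualify. That setting also admits exons of other noncoding genes, and the added regions in short RNA genes were not counted apart. These 17 lay in short introns, with a median of 457 bp against 3938 bp for the other 207 members. GAGAGA was within 100 bp of 6 of the 17 (35.3%, 14.2 to 61.7) and of 120 of the other 207 (58.0%). Their pooled signals ran from 19.3 to 54.2, the highest being the dhc-4 member.

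GAGAGA and the degenerate E-box CANNTG were the most frequent of the 12 motifs counted in members. CANNTG was in 54.9% of members and 52.5% of weaker intronic regions, and in the replicates' own lists it exceeded GAGAGA in 3 of 3. GAGAGA was present on either strand within 100 bp of the summit in 126 of 224 members (56.2%, 49.5 to 62.8). The same window held it in 45.1% of strong promoter regions, 62.7% of strong intergenic regions and 15.7% of weaker intronic regions. It was in 8.32% of 201-bp windows centred on eligible intron bases and in 14.1% of windows 500 bp to either side of the members' summits. Of those flanking windows, the ones centred on eligible intron bases had GAGAGA in 12.3%. In the replicates' own lists GAGAGA was in 39.6%, 34.8% and 54.4% of strong intronic regions, against 12.7%, 12.9% and 19.8% of weaker ones. The difference was 27.8 ± 6.35 points (SD, n = 3; exact p = 0.25) and positive in 3 of 3 replicates.

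Among strong regions, the share with GAGAGA differed less by position. Members exceeded promoter regions by 11.2 points in the pooled list and by 5.71, 2.48 and 8.94 points in replicates 1, 2 and 3 (mean 5.71 ± 3.23, SD, n = 3; exact p = 0.25). They were below intergenic regions by a difference of -6.49 points in the pooled list and of -7.73, -0.595 and -5.71 points in the replicates (mean -4.68 ± 3.68, SD, n = 3; exact p = 0.25). Keeping only regions that replicates 1 and 2 both had in their 1500 highest turned the difference from intergenic regions to 3.60 points. It was -12.5 points without replicate 1 and -0.393 without replicate 2. The difference from promoter regions was 21.7 points without replicate 2.

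The motif was gathered at the summit. In 51-bp windows GAGAGA was present in 19.6% of members at the summit, 9.82% and 6.70% at 200 bp on either side, and 3.57% and 3.12% at 500 bp. Unbroken GA runs of 10 bp or more lay within 100 bp of the summit in 39 members (17.4%), 6.67% of promoter regions, 18.3% of intergenic regions and 2.56% of weaker intronic regions. Runs of 20 bp or more lay in 7 members (3.12%). Relative to the host gene, GAGAGA was on the antisense strand alone in 68 of 126 members (53.97%, 44.9 to 62.9). It was on the sense strand alone in 38 (30.2%) and on both in 20 (15.9%). Windows with the motif at eligible intron bases had it on the antisense strand alone in 52.4%, on the sense strand alone in 43.3% and on both in 4.23%.

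**Figure D4:**
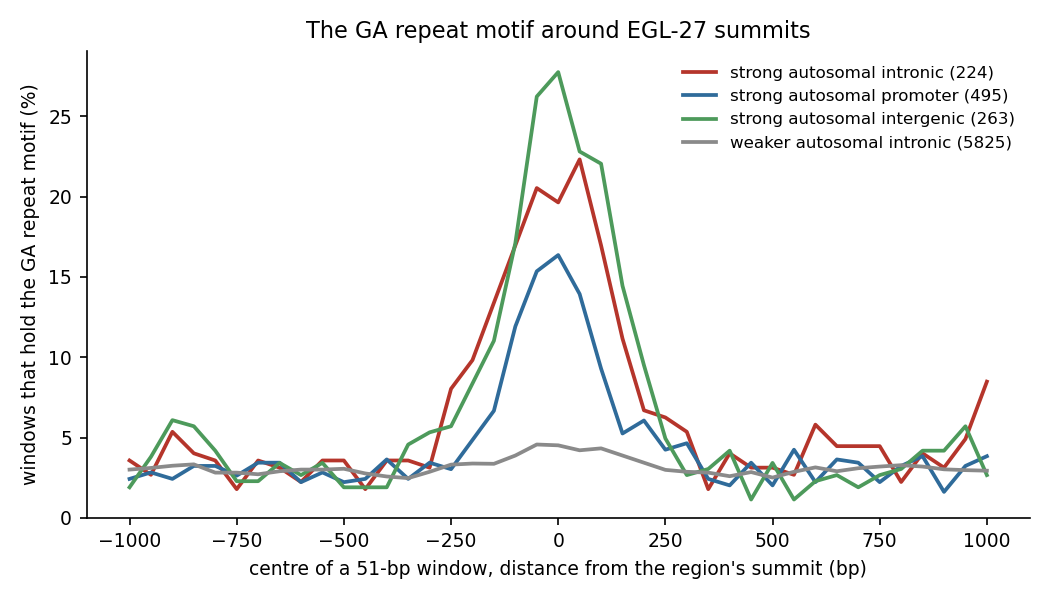
Share of 51-bp windows that hold the GA repeat motif, by distance of the window's centre from the summit, for strong intronic, promoter and intergenic regions and for weaker intronic regions. The 3 strong sets peak near the summit, at 19.6%, 16.4% and 27.8% at distance 0. The weaker intronic regions rise less, to 4.52% there from 3.06% and 2.51% at 500 bp on either side.

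The members' windows were richer in G and C than other intron sequence. The median GC content of the 201 bp was 45.8% in members, 43.8% in promoter regions, 45.3% in intergenic regions, 36.3% in weaker intronic regions and 33.3% at eligible intron bases. In the replicates' own lists the median of strong intronic regions exceeded that of weaker ones by 5.97, 6.22 and 7.96 points (mean 6.72 ± 1.08, SD, n = 3; exact p = 0.25). The windows 500 bp from the members' summits had a median of 35.8%. Some of these were centred outside eligible intron sequence, and the 350 of 448 centred inside it had a median of 33.8%. The part of base composition in the motif shares was not tested.

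The GC box GGGCGG was in 9.82% of members (6.26 to 14.5), against 4.22% of weaker intronic regions, and in 14.1% of strong promoter regions. The replicates' own lists gave 6.81%, 6.06% and 9.13% for strong intronic regions. Several AT-rich motifs were less frequent in members than in weaker intronic regions. The TATA box TATAAA was in 10.3% against 18.5%, the homeodomain core TAATTA in 4.02% against 8.38% and runs of 8 T in 12.9% against 24.4%. The heat shock pair GAANNTTC was in 5.80% against 14.2%. The forkhead site GTAAACA (2.23% against 2.37%) and the TCF-type site CTTTGA (14.3% against 14.8%) were about level. Strong promoter and intergenic regions had TATAAA in 11.7% and 9.89%, and T runs in 11.3% and 10.3%. Several of these shares were lower in the sets that leave out a replicate. Such a set keeps only members among the highest regions of both other replicates. The sets held 66, 61 and 49 members without replicate 1, 2 and 3 in turn. As they are smaller and more strictly chosen, lower shares in them cannot be put down to the replicate left out. The low shares also rest on few regions. TATAAA was in 10.6%, 4.92% and 6.12% of these sets in the same order, and the T runs were in 10.6%, 6.56% and 8.16%. TAATTA was in 1.52%, 1.64% and 2.04% without replicate 1, 2 and 3 in turn. The GATA-type site TGATAA was in 31 members (13.8%, 9.60 to 19.1), against 16.1% of weaker regions and 16.2% of windows at eligible intron bases, and the members' interval includes both values. It was in 9.09%, 6.56% and 10.2% of members without replicate 1, 2 and 3 in turn, and in 5.56% of members in the IDR list.

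The palindromic E-box CACGTG was in 20 members (8.93%, 5.54 to 13.5), against 4.05% of weaker intronic regions and 2.95% of windows at eligible intron bases. Strong promoter and intergenic regions had it in 5.66% (3.79 to 8.07) and 5.70% (3.23 to 9.23), and these intervals overlap that of the members. The replicates' own lists gave 5.53%, 5.68% and 12.9% for strong intronic regions, so replicate 3 was the high one. They gave 8.01%, 6.32% and 7.04% for strong promoter regions and 6.15%, 5.49% and 8.33% for strong intergenic regions. Intronic regions were thus below promoter regions in replicates 1 and 2, and below intergenic regions in replicate 1. Of the 20 members, 14 also had GAGAGA, as in the nhr-19, tre-2 and Y43F8B.2 regions. By pooled signal, CACGTG was in 11 of the 75 highest members (14.7%), 6 of the next 75 (8%) and 3 of the lowest 74 (4.05%). GAGAGA was in 60%, 58.7% and 50% of the same members, and TGATAA in 6.67%, 17.3% and 17.6%. The intervals of the outer 2 shares overlap for each of these motifs. In 76 members none of these 3 motifs was within 100 bp of the summit, and the highest pqn-41 region and the T24B8.3 region were among them.

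**Figure D5:**
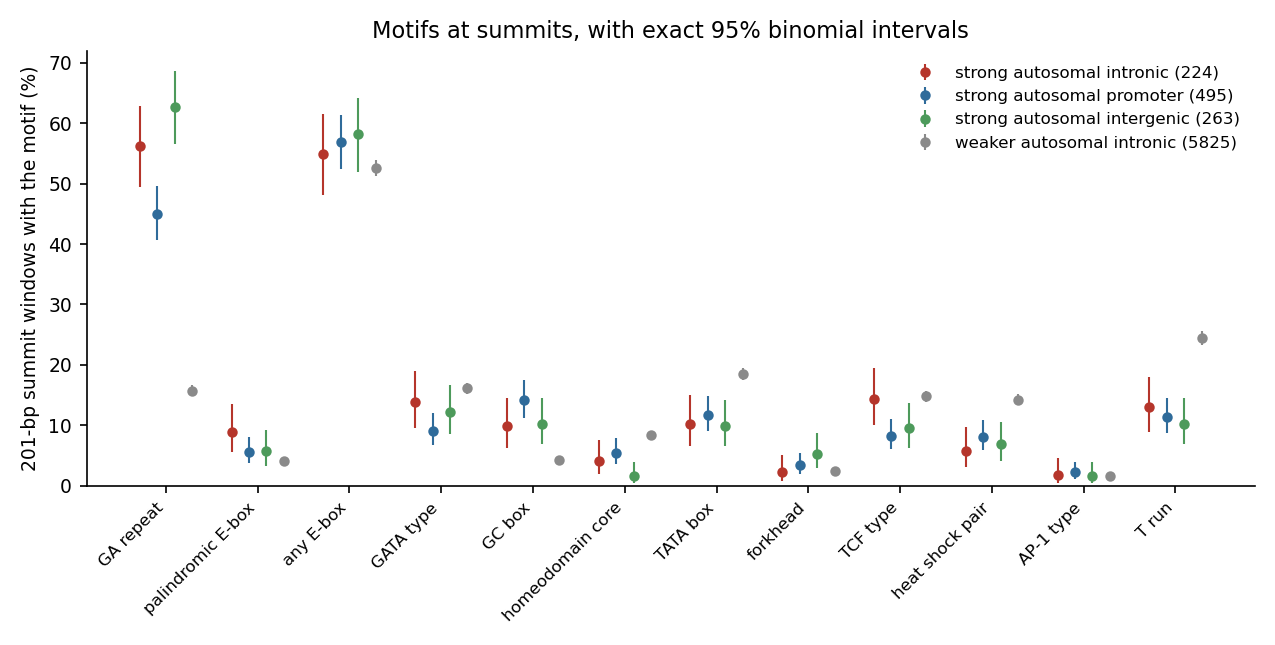
Share of regions with each of 12 motifs within 100 bp of the summit, with exact 95% binomial intervals, for strong autosomal intronic, promoter and intergenic regions and weaker autosomal intronic regions. The GA repeat (56.2% of the intronic regions) separates the 3 strong sets from the weaker one, and the T run and TATA box lie higher in the weaker one.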

How the data were processed

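ChIP-seq region lists of 3 biological replicates, 1 group with replicate numbers from the labels, were used on build ce11. The authors deposited, for each region, a signal value (height relative to control, scale not stated), a summit offset and coordinates; replicate lists, a pooled list and an IDR list were deposited. Fragmentation was by sonication, per the labels. Aligner and peak caller are not given in these sources. As the lists hold no read counts, sequencing depth is unknown; 0 columns of per-sample values were left unused. Intervals cover counting error only.

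Summits were placed on Ensembl release 115 genes (WBcel235, the same assembly as ce11), and 0 regions ran past a chromosome end. Motifs were counted on both strands in 201 bp around the summit. An intron belongs to the longest transcript that has one at the summit. Eligible intron sequence (24906343 bp) meets the same position rule. Alternatives were other list lengths, promoter windows, exons, positions, motif windows and sets without 1 replicate. Named genes are hosts of the 20 highest members, hosts of 3 or more members and the 3 highest hosts of each of 12 gene lists; others were named after their values were seen. The rule printed 50 bp either side of a summit; 100 bp was taken later so that the counted motifs are in view. Members and lists were chosen with earlier results of these data known. Code was tested on simulated data. Software was Python 3.11.15 with scipy 1.17.1, numpy 2.4.6, matplotlib 3.10.9 and pandas 2.3.3.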

Additional observations from a re-analysis of the deposited data

How the results depend on the processing

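The number of members was 140 among the 1000 highest regions and 72 in the IDR list, and 49 to 66 when 1 replicate at a time was left out, which keeps only regions among the 1500 highest of both other replicates. GAGAGA was in 34.8% of members within 50 bp of the summit, and in 56.1% to 67.2% without 1 replicate. First introns held 33.3% of members in the IDR list and 30.6% to 36.4% without 1 replicate, lowest without replicate 3. Alternative start windows held 30.6% in the IDR list and 26.5% to 31.1% without 1 replicate. The median intron length was 4213 bp to 4597 bp without 1 replicate. The difference in GAGAGA from intergenic regions was -12.5 to 3.60 points without 1 replicate, and reversed without replicate 3. The share of members in all 3 replicate lists was 28.6% among the 1000 highest regions, 12.8% among the 2000 highest, 51.4% in the IDR list, 12.9% and 26.3% with replicate lists of 1000 and 3000, and 66.5% with any listed region. The causes of these changes were not tested, except that longer lists hold more regions.

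The difference in GAGAGA from promoter regions stayed between 5.33 and 21.7 points in 17 of 17 alternatives. TGATAA was in 6.56% to 10.2% of members without 1 replicate and in 5.56% in the IDR list. Without read counts, depth limits could not be stated.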

Other observations

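A second short sequence recurs in the windows printed above. CGTCTC, which reads GAGACG on the other strand, was noticed there and then counted on the same regions, so these values are a description. Of all 2080 sequences of 6 bp, counted on both strands, GAGAGA differed most between members and weaker intronic regions (40.5 points) and CGTCTC came 6th in that order (31.1 points). The 4 between them overlap GAGAGA or CGTCTC by 4 bases or more.

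CGTCTC was within 100 bp of the summit in 86 members (38.4%, exact 95% interval 32.0 to 45.1), in 33.9% of strong promoter regions, 33.1% of strong intergenic regions and 7.31% of weaker intronic regions. It was in 4.51% of windows at eligible intron bases. The strong intronic regions of the replicates' own lists held it in 19.1%, 18.9% and 32.4%. It was in 58 of 126 members with GAGAGA (46.03%, 37.1 to 55.1) and in 28 of 98 without (28.6%, 19.9 to 38.6). Among weaker intronic regions it was in 19.1% of those with GAGAGA and 5.11% of those without. One or both sequences were present in 154 members (68.8%), against 20.02% of weaker intronic regions. By pooled signal, 30 of the 75 highest members had CGTCTC, 26 of the next 75 and 30 of the lowest 74. GACGCA and ACGCAG, which continue GAGACG, were in 28.1% and 29.9% of members, against 5.89% and 5.39% of weaker intronic regions.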
